A study of Bos taurus with 94 samples.

Results

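Cattle genes that were detected broadly in tissues outside the brain, and at lower levels in all brain regions sampled, were described in a tissue survey by RNA sequencing. For each gene the level was L = log2(FPKM + 1), where FPKM is fragments scaled by transcript length and by the mapped fragments of the library. The gap of a gene was the 25th percentile of L over the 86 libraries outside brain minus its highest L in brain, and the 60 genes with the largest gap were taken, of 24616 genes in the deposited table. The genes were thus chosen by their measured levels in brain and outside it, and these levels and the gap are given below as a description without a test. The deposited table names genes by Ensembl identifier and does not pair the identifiers with gene symbols, and none of the 24616 could be matched to a symbol (0 matched), so the genes are called by their rank of the gap and a few by identifier.

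The survey holds 94 libraries of total RNA from snap-frozen Hereford tissues, which the labels give as adult, with no treatment named. The labels name no animal, and most tissues have 1 library, so a difference between groups of tissues is set against the spread between tissues and not between animals. The brain group has 8 libraries, from cerebral, frontal and temporal cortex, hippocampus, diencephalon, thalamus, midbrain and pons. The group called pituitary and pineal has 4, from the anterior pituitary, the posterior pituitary, the pituitary stalk with median eminence, and the pineal gland. Outside these, 2 libraries labelled Pigment_epithelium_eye and Ant_Eye are called inner eye here, and a cancer eye library and a normal outer eye layer taken next to such a cancer have 1 library each. There are 11 skeletal muscle libraries, among them internal tongue muscle and diaphragm, and 69 other libraries outside brain, which include the cancer eye and the outer eye layer.

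The brain lies behind a blood barrier and is built mainly of neurons and glia, with little fibrous connective tissue and, away from its vessels, few epithelial or lymphoid cells. Most other organs contain such supporting tissues. The head organs next to the brain differ in origin. The posterior pituitary, the median eminence, the pineal gland and the pigment epithelium of the eye develop from the neural tube, whereas the anterior pituitary develops from surface ectoderm of the roof of the mouth. The posterior pituitary, the median eminence and the pineal gland also lie outside the blood barrier of the brain.

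FPKM totals over all genes ran from 642680 to 907440 in brain and from 585120 to 1062600 outside, and the depth of the libraries is unknown. The 10 most abundant genes took 20.8% to 49.9% of the total in brain (median 29.8%) and 8.54% to 50.9% outside (median 18.5%). Some libraries resembled a tissue other than their label, by the Spearman correlation over genes with the other 93 libraries. The diaphragm library was closest to gall bladder (0.99), the corpus luteum library to longissimus dorsi muscle (0.96), the adrenal library to lymph nodes (0.97), and the choroid plexus library to triceps brachii muscle (0.84). For bone marrow the nearest library was the vesicular gland (0.92). That of mammary replicate 1 was the pineal gland (0.86). The tests were therefore repeated without these 6. Larynx cartilage was closest to internal tongue muscle (0.89) and the normal outer eye layer to the library labelled prostrate (0.92), and a further repeat, added after the data were seen, left out these as well. Anterior pituitary and pineal gland were closest to each other (0.96), as were posterior pituitary and stalk (0.95), while the pigment epithelium was closest to aorta (0.88) and Ant_Eye to nasal mucosa (0.87). Without symbols no tissue label could be checked against marker genes.

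The 60 genes were lower in brain, but most were not absent from it. The highest of the 8 brain levels had a median of 5.91 FPKM over the genes and ran from 0.320 to 138 FPKM. It was under 1 FPKM for 5 genes, from 1 to under 5 for 23, from 5 to under 20 for 26, and at least 20 for 6. A brain library was listed at 0 for 13 genes, and 0 genes were listed at 0 in all 8. Outside brain the median level of a gene ran from 2.99 to 556 FPKM, with a median of 31.2. The ratio of the median outside brain to the median in brain ran from 2.51 to 93.5, with a median of 8.93. In bulk tissue, fewer cells of a type and less RNA per cell cannot be told apart.

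Most of the genes were abundant ones outside brain, which the rule favours, because a large gap needs a high 25th percentile there. Their median level outside brain had a median percentile of 91.1 (from 60.7 to 99.5), against 57.7 for their median level in brain (from 34.9 to 97.6). The percentiles are among all genes of the table, with no filter on low values. Each was at 1 FPKM or more in at least 72 of the 86 libraries outside brain, and 25 were so in all 86. The rule favours this breadth as well. Breadth did not mean an even level. For 21 genes the highest library was at least 10 times the median outside brain, and 23 were listed at 0 in some library outside brain. The highest library was a lymphoid tissue or white blood cells for 11 genes, liver for 6, a library of the respiratory tract for 5, and esophagus, an oviduct segment or the urinary tract for 4 each.

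**Figure D1:**
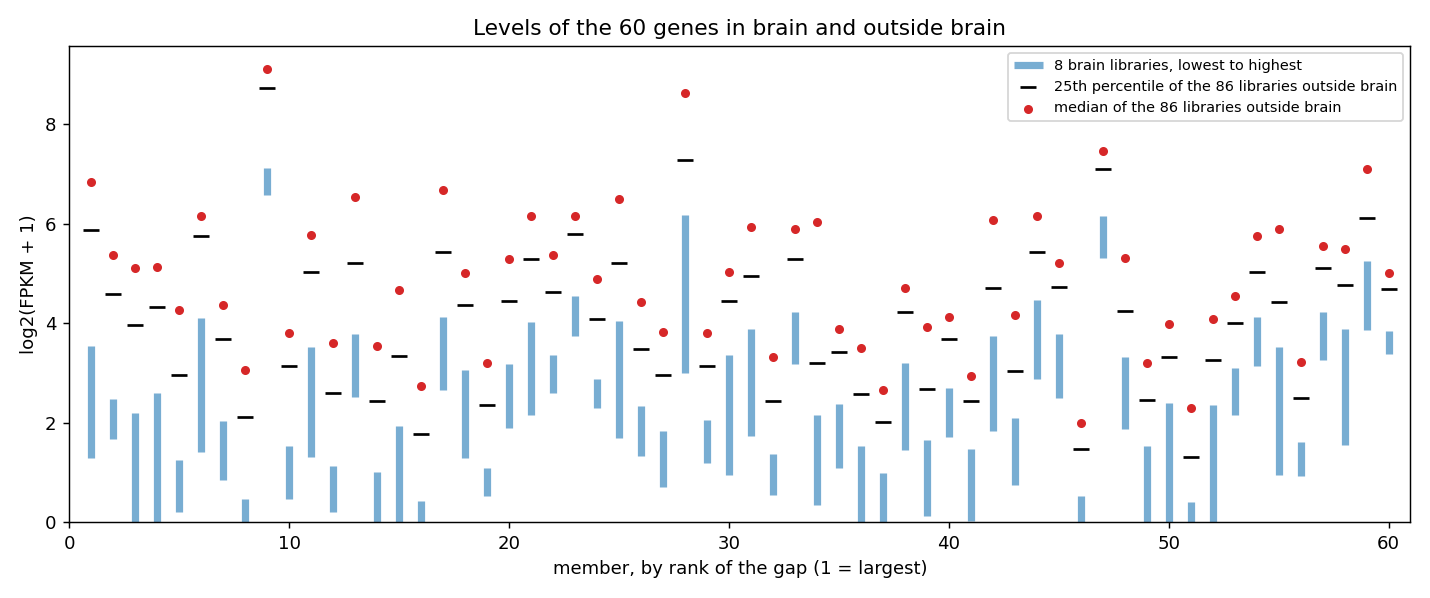
Level of each of the 60 genes as log2(FPKM + 1), ordered by the gap that chose them. The blue bar runs from the lowest to the highest of the 8 brain libraries, the black dash is the 25th percentile of the 86 libraries outside brain and the red dot is their median; dash and bar lie apart because the rule asked for it.

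The pattern was less common than a reversed one with brain high, but the conditions differ in more than direction. A gap above 0 needs a level above 0 in most libraries outside brain, whereas the reversed condition also takes genes near 0 there. How far this sets the counts was not tested. A gap above 0 was found for 626 genes, 2.54% of the table, and a gap of at least 1 on the log2 scale for 39. By comparison, 1365 genes (5.55%) had all 8 brain libraries above the 75th percentile of the libraries outside brain, 476 of them by at least 1 on the log2 scale and 547 by at least the smallest gap among the 60. The gaps of the 60 had a median of 1.07 and ran from 2.34 at rank 1 to 0.85 at rank 60. The last 3 genes inside had gaps of 0.89, 0.86 and 0.85, and the first 3 outside had 0.85, 0.84 and 0.84, so the edge of the list falls within a continuous series. The mean log2 level in brain minus that in the other libraries had a median of -2.50 over the 60 genes, which the rule chose for. Over all genes with at least 1 FPKM in at least 3 of the 94 libraries the median was -0.09. None of the 60 (0) was among the 60 genes that the same rule gives for skeletal muscle in place of brain. With 60 of 24616 genes in each list, unrelated lists would mostly share 0 as well, so this does not set the genes apart. The muscle rule also took the highest muscle library, with diaphragm among them.

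The gene with the largest gap was ENSBTAG00000011182. In brain its level was lowest in thalamus at 1.43 FPKM, had a median of 2.31, and was highest in pons at 10.6, with 7.13 in diencephalon and 5.67 in midbrain. The cortical regions and hippocampus were between 1.68 and 2.31. Outside brain its median was 114 FPKM, its 25th percentile was 57.6, and its highest level was 443 in the corpus luteum library. A single library outside brain (1 of 86) was below pons, the pigment epithelium at 8.54 FPKM.

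Rank 2, ENSBTAG00000015249, was more even in brain, with 2.18 FPKM in frontal cortex, a median of 2.69 and 4.56 in midbrain. Its lowest level outside brain was 7.47 FPKM in biceps femoris, so none of the 86 libraries reached down to the brain range (0 of 86). The median outside brain was 40.6 FPKM and the highest level 350, in the mammary gland library. Of the 60 genes, 4 had no library outside brain at or below their highest brain level, those at ranks 2, 23, 57 and 60. For the 60 genes the number of libraries at or below that level ran from 0 to 17 of 86, with a median of 6. The rule favours small numbers here, and genes outside the list were not counted in this way.

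A lower level in brain than outside also occurred among very abundant genes. Rank 9 was the most abundant outside brain, with a median of 556 FPKM, and had 94.4 to 138 FPKM in brain. Its lowest level outside brain was 123 FPKM, in mammary replicate 1. Among the less abundant genes, rank 8 (ENSBTAG00000025263) was listed at 0 in thalamus and did not exceed 0.383 FPKM in brain, against a median of 7.32 outside. It was not the lowest: the median outside was 2.99 FPKM at rank 46, and the highest brain level was 0.320 FPKM at rank 51.

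Brain regions were not alike. The highest brain level was in midbrain for 24 genes, in pons for 17, in diencephalon for 10, in hippocampus for 4, in cerebral and temporal cortex for 2 each, and in thalamus for 1. The lowest was in thalamus for 32. For a gene, the highest and lowest brain libraries differed by a median of 1.28 on the log2 scale, from 0.40 to 3.17. The median of the 60 genes, relative to each gene's median outside brain, was -3.06 in thalamus, between -2.72 and -2.52 in the cortical regions and hippocampus, -2.42 in diencephalon, -2.32 in pons and -2.09 in midbrain. A wider set of 9463 genes had a 25th percentile outside brain of at least the smallest among the 60. Their median, taken in the same way, was -0.38 in thalamus, -0.44 in pons, 0.12 in diencephalon and 0.14 in midbrain. In the cortical regions and hippocampus it lay between -0.36 and 0.03. The counts of highest and lowest regions were not made for other genes. With 1 library per region and no replicates, the order of the regions has no error. Because the rule takes the highest brain library, pons and midbrain set the list most: without pons 36 of the 60 genes stayed, and without midbrain 49.

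The 60 genes did not vary together as 1 group outside brain. Over the 86 libraries outside brain, the Spearman correlations of the 1770 pairs had a median of 0.21 and ran from -0.62 to 0.96. Only 9 pairs, made of 10 genes, were at 0.8 or above, and 476 were below 0. The closest pairs were ranks 17 and 25 (0.96), ranks 16 and 19 (0.94), ranks 11 and 41 (0.92), and ranks 11 and 13 (0.91). Over all 94 libraries, the gene of the whole table most like rank 1 had a correlation of 0.63 with it, that most like rank 2 had 0.82 and that most like rank 3 had 0.91, and none of these closest genes was among the 60. All of these values come from the same tissues and are given as a description. No such values were computed for pairs of other genes, so whether the 60 vary together more or less than others was not tested. As the list holds 60 of 24616 genes, a closest gene outside it is likely for any gene.

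The libraries outside brain differed widely in how far they carried the genes. In 32 of the 86 libraries every one of the 60 genes lay above its highest brain level, in 30 libraries 1 to 5 genes did not, in 11 libraries 6 to 12, and in 13 libraries more than 12. The highest medians of the 60 genes, relative to each gene's median outside brain, were 0.82 in mammary gland, 0.77 in ureter, 0.70 in urethra, 0.66 in vesicular gland and 0.59 in the contralateral isthmus of the oviduct. These tissues had 0 genes at or below the brain maximum. At the low end were mammary replicate 1 at -1.61, the choroid plexus library at -1.54, larynx cartilage at -1.15, and 10 of the 11 skeletal muscle libraries, between -1.27 and -0.99. Larynx cartilage had 18 genes at or below the brain maximum. White blood cells combined both extremes. They were the highest of all libraries for 6 genes, had a median of 0.23, and held 15 genes at or below the brain maximum.

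**Figure D2:**
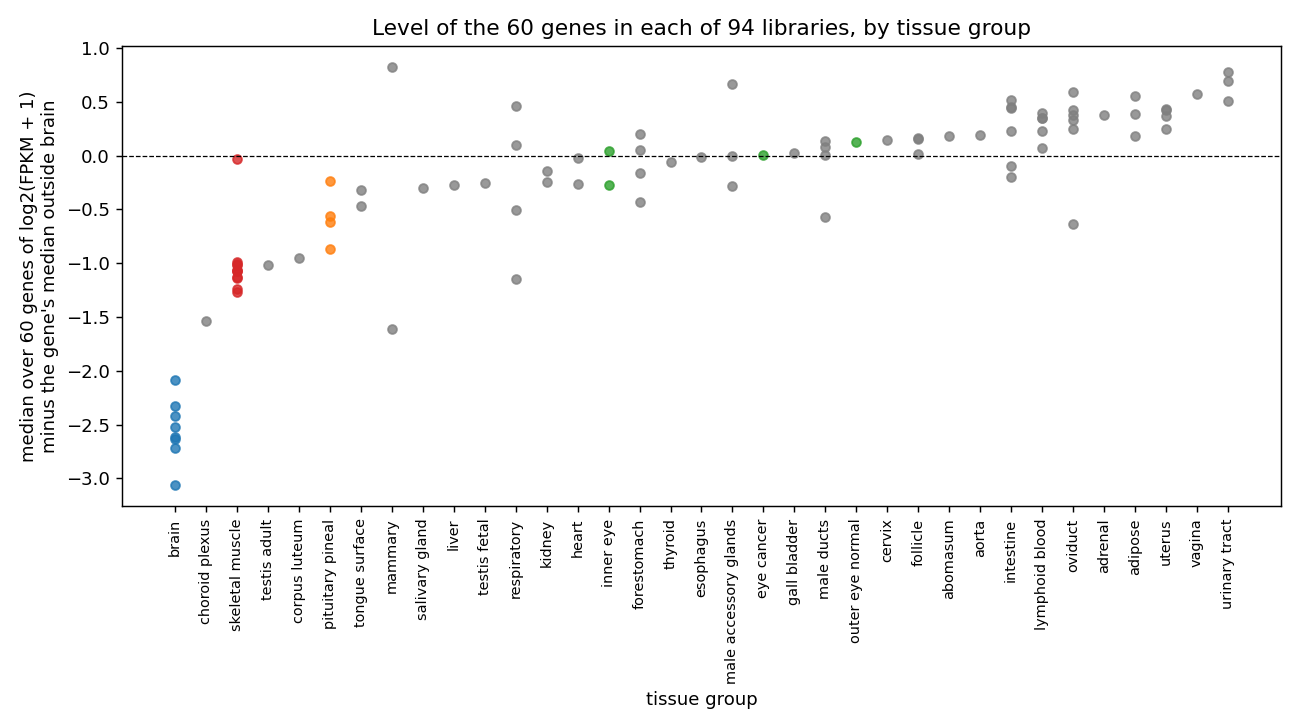
Median over the 60 genes of log2(FPKM + 1) minus each gene's median outside brain, 1 point per library, with tissue groups ordered by their median. Brain (blue) lies between -3.06 and -2.09 by choice of the genes; skeletal muscle (red) lies between -1.27 and -0.99 apart from diaphragm at -0.03, pituitary and pineal (orange) between -0.87 and -0.24, and the eye libraries (green) between -0.27 and 0.12.

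In pituitary and pineal, most of the 60 genes lay above their brain levels and more lay below the median outside brain than above it. The first follows in part from the rule, which set the 25th percentile of the 86 libraries, these 4 included, above the brain maximum. All 4 libraries lay above the brain maximum for 49 genes, and all 4 lay below the median outside brain for 32. For 11 genes all 4 lay below the 25th percentile outside brain, and for 3 genes all 4 lay above the median. Such joint counts were not made for other genes, so how common they are is unknown. In anterior pituitary 10 genes were at or below the brain maximum and in pineal gland 5, while in posterior pituitary and in the stalk with median eminence there were 0. The medians relative to the level outside brain were -0.87 in anterior pituitary, -0.62 in pineal gland, -0.56 in posterior pituitary and -0.24 in the stalk.

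Low levels were less frequent in these libraries for a wider set of genes. This set was not matched to the 60 for level. It took a 25th percentile outside brain of 1.49 FPKM or more, where the 60 had a median of 16.9 FPKM. Among the 9463 genes whose 25th percentile outside brain was at least the smallest of the 60, 22.7% lay below that percentile in anterior pituitary, 8.86% in pineal gland, 7.87% in posterior pituitary and 2.32% in the stalk. Of the 60 genes, 31 did so in anterior pituitary, 26 in pineal gland, 21 in posterior pituitary and 12 in the stalk. These are 51.7%, 43.3%, 35% and 20% in that order. Above the median outside brain lay 13.3%, 21.7%, 20% and 36.7% of the 60 in the same order. Of the 9463 genes, 48.2%, 69.8%, 63.2% and 82.6% did. The share below the 25th percentile was higher for the 60 genes in all 4 libraries, but not only there. It was also higher in all 4 uterus libraries, the 2 kidney libraries and 3 of 4 male duct libraries. In tail epididymis it was 31.7% against 7.77%. In all 4 forestomach, all 3 adipose and all 3 urinary tract libraries it was lower. The largest share of the total taken by the 10 most abundant genes among these libraries was 49.7%, in anterior pituitary, and the smallest 14.8%, in the stalk; the part of this in the order was not tested.

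**Figure D3:**
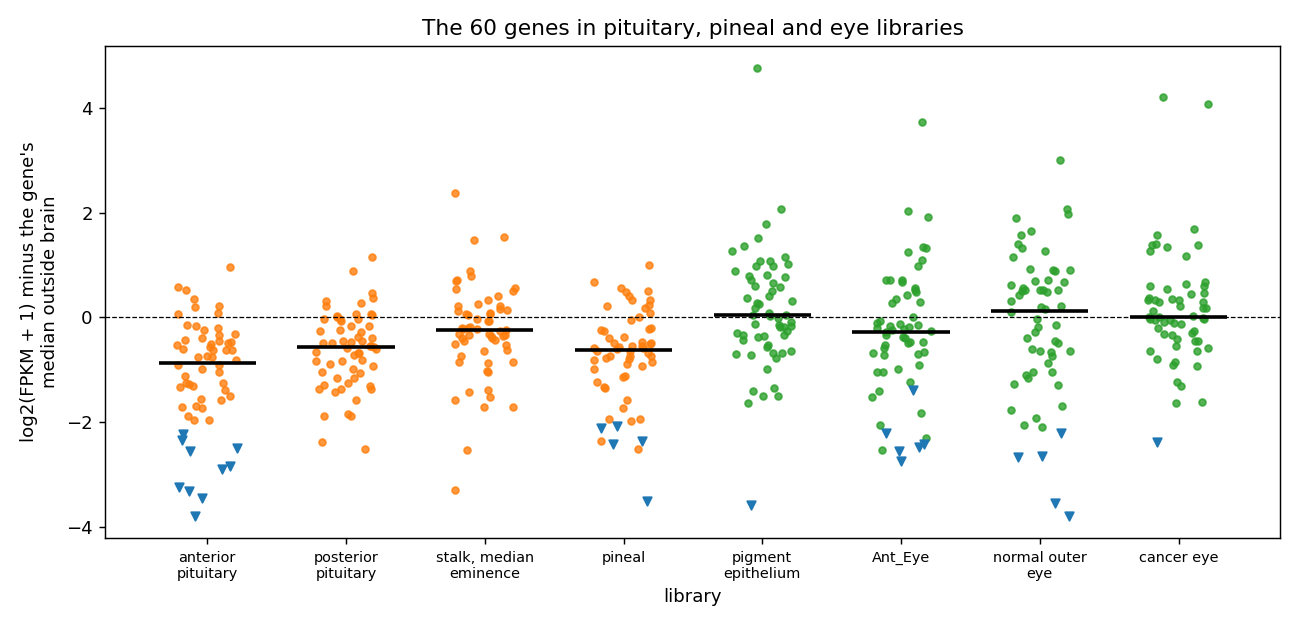
The 60 genes in the 8 pituitary, pineal and eye libraries, as log2(FPKM + 1) minus each gene's median outside brain; orange points are pituitary and pineal, green points are eye, blue triangles are genes at or below their highest brain level, and the black bar is the median of the 60. Anterior pituitary has the lowest bar, at -0.87, and 10 blue triangles; the posterior pituitary and stalk have 0.

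Within the 4, the anterior pituitary was lowest for 36 genes, the posterior pituitary for 13, the pineal gland for 7 and the stalk for 4. The stalk was highest for 38. By at least 1 on the log2 scale, 23 genes were higher in the stalk than in anterior pituitary and 1 was lower, where 16.9% of all genes tested were higher and 2.66% lower. Against posterior pituitary, 11 genes were lower in anterior pituitary and 0 higher, where 8.1% of all genes were lower and 1.35% higher. Each is a comparison of 1 library with 1 library.

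The 4 libraries were compared with the 69 other libraries by limma, with brain left out and 17832 genes tested. A gene was called at a Benjamini-Hochberg adjusted p under 0.05 and a difference of at least 1 on the log2 scale. Of the 60 genes, 7 were lower in pituitary and pineal and 0 higher; over all genes tested, 0.443% were called lower and 8.36% higher. The difference was below 0 for 50 of the 60, with a median of -0.69, against a median of 0.17 over all genes tested. The rule read the levels of all 86 libraries compared here, so the calls and adjusted p-values of the 60 genes, here and below, are not independent of the choice of the genes. When the rule was applied without pituitary, pineal and eye libraries, 55 of the 60 genes stayed; of that list again 7 were lower and 0 higher, 51 were below 0 and the median was -0.78. The other libraries entered that choice too, apart from cancer eye and the outer eye layer. After quantile normalization, which forces the same distribution on every library, 13 of the 60 were lower and 0 higher, while 1.49% of all genes were called lower and 6.42% higher, and the median over all genes moved from 0.17 to -0.08. The count of 7 fell to 2 without anterior pituitary, to 4 without pineal gland, and to 5 without posterior pituitary or without the stalk. Lower calls over all genes tested fell as well, from 79 to 8, 20, 35 and 57 without anterior pituitary, pineal gland, posterior pituitary and stalk. Without the 6 libraries that resembled another tissue 9 of the 60 genes and 131 of all genes were called lower, and without 8, larynx cartilage and the outer eye layer added, 11 and 159.

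The largest of the 7 differences was at rank 11, ENSBTAG00000045492. It had 4.02 FPKM in anterior pituitary, 20.4 in posterior pituitary, 18.1 in the stalk and 13.4 in pineal gland. Brain ran from 1.48 to 10.5 FPKM with a median of 4.91, and the other 69 libraries from 16.5 to 1325 with a median of 69.7, the highest being liver. The anterior pituitary was thus within the brain range and was the lowest of all libraries outside brain, whereas the posterior pituitary and stalk overlapped the low end of the other tissues. The difference was -2.66 ± 0.64 (SE, n = 4 and 69; limma adjusted p = 0.00153), and the gene was called under all 10 alternatives tried, with an adjusted p up to 0.0468.

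ENSBTAG00000002326, at rank 42, had 7.996 FPKM in anterior pituitary, 17.6 in posterior pituitary, 19.4 in the stalk and 11.5 in pineal gland, against a median of 83.8 in the other 69 libraries and 2.58 to 12.5 in brain. Anterior pituitary and pineal were within the brain range. Its difference was -2.37 ± 0.75 (SE; limma adjusted p = 0.0246) and it stayed called under 5 of 10 alternatives, with an adjusted p up to 0.130. Rank 1 was also lower, with 33.5 FPKM in anterior pituitary, 21.0 in posterior pituitary, 10.6 in the stalk and 28.3 in pineal gland, against a median of 115 in the other 69 libraries. Here the stalk, not the anterior pituitary, was lowest and lay close to pons. The difference was -2.20 ± 0.57 (SE; limma adjusted p = 0.00416); without the stalk it was -1.88, with an adjusted p of 0.0685.

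Rank 2 had 12.97 FPKM in anterior pituitary, 15.1 in posterior pituitary, 65.9 in the stalk and 23.2 in pineal gland, against a median of 43.1 in the other 69 libraries. The stalk was above that median and the others were below it. The difference of -0.78 ± 0.44 (SE) did not pass, with a limma adjusted p of 0.298.

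The eye libraries carried the genes at about the level of other tissues. Relative to the level outside brain, the median of the 60 was 0.04 in pigment epithelium, -0.27 in Ant_Eye, 0.12 in the normal outer eye layer and 0.01 in cancer eye. Genes at or below the brain maximum numbered 1, 6, 5 and 1 in that order. Both inner eye libraries lay above the brain maximum for 53 genes, and all 8 pituitary, pineal and eye libraries did so for 38. These counts too follow in part from the rule, and they were not made for other genes. In pigment epithelium 16.7% of the 60 genes lay below the 25th percentile outside brain, against 24.7% of the 9463 comparison genes; in Ant_Eye the shares were 31.7% and 25.02%, in the outer layer 30% and 26.6%, and in cancer eye 10% and 23.3%.

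Against the other 69 libraries, which this comparison shares with the one of pituitary and pineal, 0 of the 60 genes were called in inner eye by limma and 6 had an unadjusted p under 0.05. Over all genes tested 1.53% were called higher and 0% lower, and 1036 had an unadjusted p under 0.05. The differences were above 0 for 28 genes and below 0 for 32, with a median of -0.18, against -0.10 over all genes. With 2 unlike libraries the comparison has little precision. Pigment epithelium was higher than Ant_Eye by at least 1 on the log2 scale for 20 of the 60 genes and lower for 8, and 21.2% and 18.2% of all genes tested were so.

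Single genes differed more than these medians. Rank 30, ENSBTAG00000007062, had 882 FPKM in pigment epithelium, the highest of the 94 libraries, and 22.7 in Ant_Eye, 20.1 in the outer eye layer and 27.3 in cancer eye. Brain ran from 0.936 to 9.32 FPKM and the median outside brain was 31.8. In pituitary and pineal it had 62.9, 59.8, 168 and 64.8 FPKM in anterior, posterior, stalk and pineal, all above that median. The inner eye difference was 2.23 ± 1.14 (SE, n = 2 and 69; limma adjusted p = 0.877) and it was -0.38 without pigment epithelium.

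Rank 1 showed the opposite order in the eye, with 8.54 FPKM in pigment epithelium, within the brain range, and 139 in Ant_Eye, 50.3 in the outer layer and 340 in cancer eye. Its inner eye difference was -1.50 ± 0.80 (SE; limma adjusted p = 0.935), and 0.44 without pigment epithelium. Rank 2 was closer together, with 42.2 FPKM in pigment epithelium, 25.3 in Ant_Eye, 108 in the outer layer and 44.5 in cancer eye, all above its brain range.

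When pituitary and pineal were set against inner eye, 0 of the 60 genes were called by limma and 6 had an unadjusted p under 0.05. Over all genes 2.1% were called higher in pituitary and pineal and 0.723% lower, and after quantile normalization 1.83% and 1.03%, with 1 of the 60 called lower. The difference was below 0 for 39 of the 60, with a median of -0.39 against 0.23 over all genes tested. For the list chosen without pituitary, pineal and eye libraries, in which neither side entered the choice, 0 were called, 39 were below 0 and the median was -0.45. Rank 11 had 132 FPKM in pigment epithelium and 136 in Ant_Eye, above all 4 pituitary and pineal libraries, and a difference of -3.36 ± 1.08 (SE, n = 4 and 2; limma adjusted p = 0.0740). Between the cancer and the normal outer layer, 18 genes were higher in cancer eye than in the normal outer layer by at least 1 on the log2 scale and 13 were lower, and 20.3% and 18.2% of all genes tested were so.

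Many of the 60 genes were also low in skeletal muscle, as were many other genes. The median of the 11 muscle libraries was at or below the brain maximum for 17 genes, while for 24 genes all 11 lay above it. For 16 the muscle median was above the median outside brain. These counts were not made for other genes, and the rule favours a low brain maximum. Against the same 69 libraries, 31 of the 60 genes were lower in muscle and 3 higher by limma, and over all genes 33% were called lower and 4.78% higher. The median difference was -1.20 for the 60 and -0.64 over all genes tested. After quantile normalization 20 were lower and 8 higher, with 11.4% and 11.3% over all genes, and the medians were -0.34 and -0.14. Muscle libraries other than diaphragm were also low for the comparison genes. In 9 of the 11, the share of the 60 genes below the 25th percentile outside brain was smaller than that of the comparison genes. In infraspinatus, for example, the shares were 58.3% and 70.6%.

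The diaphragm, which resembled gall bladder, had a median of -0.03 and 3 genes at or below the brain maximum, where the other 10 had 12 to 22. All 34 called genes remained called without each of the 11 muscle libraries in turn. With the rule applied without the muscle libraries, which is an alternative added after the data were seen, 44 of the 60 genes stayed, and 46 of the new list were lower and 2 higher.

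ENSBTAG00000046161, at rank 34, had the largest difference. It ran from 0.471 to 17.8 FPKM in muscle with a median of 1.89, from 0.280 to 3.47 in brain with a median of 1.04, and had a median of 82.5 in the other 69 libraries, with 3269 in lymph nodes. Muscle overlapped brain and its median lay within the brain range. The difference was -4.43 ± 0.76 (SE, n = 11 and 69; limma adjusted p = 7.03e-07). In cancer eye it had 1103 FPKM and in the normal outer layer 69.1.

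Rank 59, ENSBTAG00000014191, had 5.96 to 109 FPKM in muscle with a median of 7.88, the highest being diaphragm, and 13.5 to 37.2 in brain with a median of 15.03. Its muscle median was below the lowest brain library. The other 69 had a median of 149 FPKM, and the difference was -3.79 ± 0.44 (SE; limma adjusted p = 1.04e-11), or -4.11 without diaphragm.

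Some genes went the other way. ENSBTAG00000044017, at rank 43, had 48.6 to 87.1 FPKM in muscle with a median of 57.9, above the median of 14.1 in the other 69 libraries and far above the 0.682 to 3.26 in brain. The 11 muscle libraries and the 8 brain libraries did not overlap. Its difference was 2.01 ± 0.44 (SE; limma adjusted p = 5.90e-05). Rank 8 had a muscle median of 27.3 FPKM and a highest level of 33.4, and 0.333 in diaphragm, against 7.01 in the other 69. The difference was 1.46 ± 0.43 (SE; limma adjusted p = 0.00259), or 1.85 without diaphragm. Rank 1 had a muscle median of 131 FPKM, from 36.7 to 389, and a difference of 0.46 that did not pass (limma adjusted p = 0.262). For rank 2 the muscle median was 8.83 FPKM, with 125 in diaphragm, and the difference of -1.76 ± 0.28 (SE; limma adjusted p = 8.79e-08) was -0.93 after quantile normalization, under the size asked for.

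**Figure D4:**
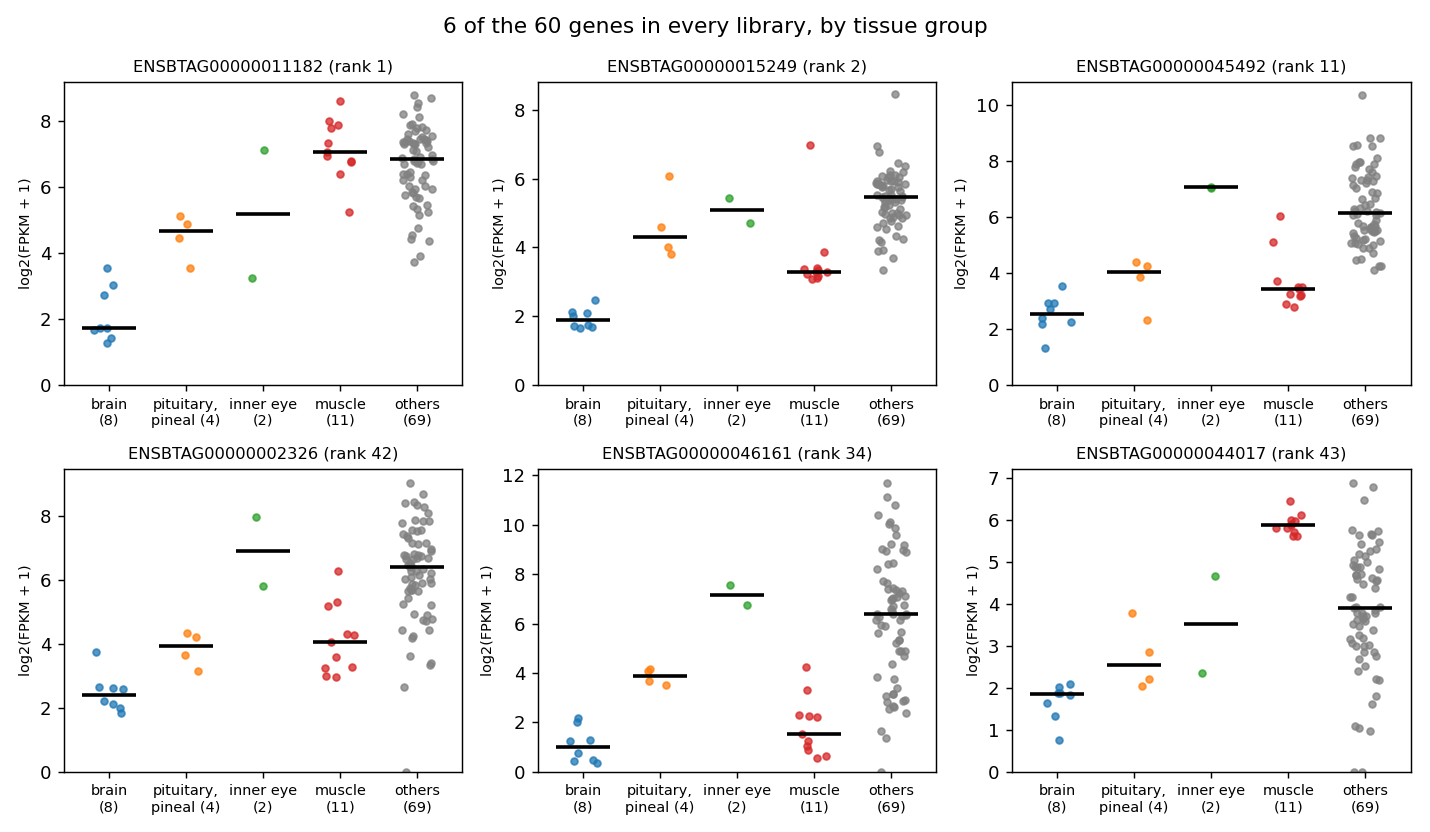
Level of 6 of the 60 genes as log2(FPKM + 1) in all 94 libraries, 1 point per library, with the black bar at the median of each group. For ranks 1, 2, 11 and 42 the pituitary and pineal bar lies between the bars of brain and the other 69 libraries; rank 34 is near its brain level in muscle, with medians of 1.89 and 1.04 FPKM, and rank 43 is higher in muscle, at a median of 57.9 FPKM, than in the other 69.

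Testis was a further tissue with many low values. In the bull testis library 12 of the 60 genes were at or below the brain maximum, the median was -1.02, and 56.7% of the genes lay below the 25th percentile outside brain, against 28.1% of the comparison genes. In the fetal testis library, which the labels also give as adult, 5 genes were at or below the brain maximum, and the shares were 33.3% and 6.60%. Liver had 7 genes at or below the brain maximum and was the highest library for 6 others, and its shares were 38.3% and 53.8%. The kidney cortex and medulla libraries had 0 genes at or below the brain maximum.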

How the data were processed

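The authors deposited a single table of FPKM values for 24616 genes and 94 libraries. Per the submitters' processing notes reads were processed with HISAT2 and StringTie on genome build UMD3.1; the sources used here give neither tool versions nor the annotation. FPKM is relative, so a few abundant genes lower all others, and depth is unknown, so no counting error can be given. From the deposited FPKM, log2(FPKM + 1) was computed (Python 3.11.15, pandas 2.3.3). Tests used limma 3.58.1 (R 4.3.3; trend, empirical Bayes, two-sided) on the 86 libraries outside brain in 4 groups, for genes with at least 1 FPKM in at least 3 of them, with Benjamini-Hochberg adjustment over 17832 genes; the script was tested on simulated data. Brain was in no test, because its levels chose the genes. The rule also read the 86 libraries tested, and most of the 69 other libraries in each repeat of it, so calls of the 60 genes describe them and are not independent evidence. The 3 comparisons with the 69 other libraries share those libraries.

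The genes and lists were chosen with earlier results of these data known. Named genes are the largest gaps, the threshold neighbours and the largest called differences, with at most 2 identifiers per direction and comparison; the genes at ranks 9 and 30 are those with the highest median outside brain and the highest pigment epithelium level. Prepared gene and marker lists could not be applied, and no sequence is shown, because no identifier matched a symbol (0 of 24616). Replicates are different tissues of unknown animals, so p-values measure the spread between these samples.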

Additional observations from a re-analysis of the deposited data

Results flagged for a closer look

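In 4 of 27 groups of values looked at, a single library stood apart from its group by Dixon's criterion at 95%; chance alone flags about 1 in 20. Within pituitary and pineal, ENSBTAG00000007062 (rank 30) was 168.4 FPKM in the stalk with median eminence, against 59.8 to 64.8 in the other three. In the same group ENSBTAG00000014191 (rank 59) was 149.6 FPKM in the stalk, against 85.0 to 91.8 in the other three. Within brain, ENSBTAG00000002326 (rank 42) was 12.48 FPKM in pons, against 2.58 to 5.35 in the other regions. Among the oviduct libraries, the median of the 60 genes relative to their level outside brain was lowest in the ipsilateral isthmus, at -0.6372, where the contralateral isthmus had 0.59; the ipsilateral isthmus library was closest to the cervical lining (Spearman 0.88).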

How the results depend on the processing

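The membership depends on the rule: of the 60 genes, 39 stayed when quantile-normalized values entered the rule, 29 with the median in place of the 25th percentile, 36 with the mean of brain in place of its maximum, and 36 to 60 when a brain library was left out. Members called in pituitary and pineal numbered 13 after quantile normalization (7 in the report) and 2 to 5 when a library of the group was left out, and 11 without the 8 libraries closest to another tissue, chosen after seeing the data. With a pseudocount of 0.1, calls over all genes fell to 168 in inner eye (273 in the report) and to 273 for pituitary and pineal against inner eye (504). Quantile normalization gave 4033 calls over all genes in muscle (6740) and 1 called member for pituitary and pineal against inner eye (0). With the rule applied without muscle libraries, an alternative chosen after seeing the data, 48 members were called in muscle (34). Over all genes 33% were called lower and 4.78% higher in that fit. Among the named genes, directions turned in comparisons with the 2 inner eye libraries, where 1 was left out. Against the other tissues, ENSBTAG00000011182 (-1.50 with both) was 0.44 without pigment epithelium and -3.44 without Ant_Eye, ENSBTAG00000007062 (2.23) was -0.38 and 4.84, and ENSBTAG00000015249 (-0.33) was -0.690 and 0.0284. For pituitary and pineal against inner eye, ENSBTAG00000011182 (-0.70) was -2.64 and 1.24. The causes were not tested. The other 102 recomputed counts stayed within 1.5 times the reported one, and 179 differences of single genes kept direction and call. No paired analysis was possible because the columns carry no replicate numbers. Depth is unknown, and tissues with 1 library have no error.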
